A study of Mus musculus with 18 samples.

Results

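Interferon-stimulated genes are the genes that cells switch on after an interferon binds its receptor. A set of 36 of them was followed through a mouse model of colitis-associated colorectal cancer: 14 that answer mainly to type I interferon, 14 that answer mainly to interferon gamma and 8 that answer to either. The genes were chosen by symbol and not by a measured value, though earlier results of these data were known. The probe set of highest mean signal stood for each gene. Of the 36, 34 had a probe set annotated to a single gene, and all 34 passed the filter on dim probe sets, among 12877 genes tested in all. The 34 comprised 12 type I members, 14 interferon gamma members and 8 induced by either. Isg15 and Ifi44 had no probe set of their own and were not tested.

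The animals were male mice of ICR, an outbred stock, and were 6 weeks old when the experiment began. The carcinogen azoxymethane (AOM), which mutates colonic epithelium, was injected once into the peritoneum on day 1 at 10 mg/kg, and then dextran sulfate sodium (DSS), which injures the epithelium, in the drinking water: 2% on days 8 to 14, and 1.5% on days 29 to 33 and again on days 50 to 54. Colorectal tissue of treated mice was taken on day 14 (inflamed mucosa, at the end of the first DSS cycle), day 28 (low grade dysplasia), day 42 (high grade dysplasia), day 56 (high grade dysplasia, described as actively inflamed) and day 140 (carcinoma). Controls received saline and plain water and gave normal mucosa on day 14 only, so from day 28 on stage and age differ together, and no group had AOM alone or DSS alone. Each of the 6 groups had 3 samples labelled as biological replicates, each on 1 Affymetrix Mouse Genome 430 2.0 array. Nothing in the labels says which mice they came from, and p-values measure the spread between these samples.

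Type I interferons signal through a receptor made of IFNAR1 and IFNAR2 and the kinases JAK1 and TYK2 to activate ISGF3, a transcription factor complex that contains STAT2 and IRF9 and binds the interferon-stimulated response element (ISRE). Interferon gamma acts through its own receptor on genes with gamma-activated sites (GAS), and induces the transcription factor IRF1, which also binds ISRE-like sequence. In the colon, type I interferon from the mucosa is known for antiviral defence and for effects on barrier repair, and interferon gamma, from T and NK cells, for activating macrophages and for antigen presentation.

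RefSeq promoters (build GRCm38.p6, the window from 250 bases before to 50 after each annotated start) were searched for ISRE and GAS elements. The ISRE core was searched as a pair of TTTC blocks separated by any 2 bases, and GAS as TTCNNNGAA, on both strands and with overlaps allowed. An ISRE match on the opposite strand reads as a pair of GAAA blocks. A match lay in the window of 15 of the 28 members with a window for ISRE (53.6%, against 3.99% of 27025 genes) and of 9 of 28 for GAS (32.1%, against 9.55%). By class, ISRE was found in 5 of 10 type I members, 7 of 12 interferon gamma members and 3 of 6 of those induced by either, and GAS in 1 of 10, 5 of 12 and 3 of 6. The table of promoters held no window for Oas2, Mx1, Mx2, Usp18, Iigp1, Cxcl11, Zbp1 and Parp14. A match describes letters in a window and is not a measured site. Each stretch below is printed 5′ to 3′ on the gene's own strand, with the matches in capitals. They are Ifit1 (chr19:34640765-34640833, plus strand), Ifit3 (chr19:34583353-34583436, plus) and Rsad2 (chr12:26456543-26456592, minus), the antiviral effectors that moved together from array to array; Igtp (chr11:58199491-58199551, plus), Irgm2 (chr11:58214882-58214942, plus) and Gbp2 (chr3:142620584-142620633, plus), GTPases of the interferon gamma class; Irf1 (chr11:53769904-53769952, plus), a GAS without an ISRE; and Cxcl10 (chr5:92349073-92349122, minus) and Bst2 (chr8:71537567-71537628, minus), which passed the test in inflamed mucosa.
Ifit1: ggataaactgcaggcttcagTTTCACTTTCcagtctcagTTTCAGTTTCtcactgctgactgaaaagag
Ifit3: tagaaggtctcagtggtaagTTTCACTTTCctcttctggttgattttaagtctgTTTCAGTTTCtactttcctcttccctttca
Rsad2: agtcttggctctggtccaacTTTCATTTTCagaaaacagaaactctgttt
Igtp: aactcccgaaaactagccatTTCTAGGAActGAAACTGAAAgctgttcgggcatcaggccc
Irgm2: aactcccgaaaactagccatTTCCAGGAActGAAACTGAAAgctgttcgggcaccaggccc
Gbp2: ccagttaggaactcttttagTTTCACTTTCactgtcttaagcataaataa
Irf1: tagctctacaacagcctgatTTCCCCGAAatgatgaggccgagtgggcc
Cxcl10: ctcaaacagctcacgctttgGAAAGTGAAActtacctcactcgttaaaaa
Bst2: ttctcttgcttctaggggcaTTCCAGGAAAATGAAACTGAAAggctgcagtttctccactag
Ifit1 and Ifit3 each carry 2 ISRE matches upstream of the start, at -104 and -85 and at -156 and -122. The stretches of Igtp and Irgm2, neighbouring paralogs, hold a GAS followed by an ISRE and differ at 2 of 61 positions. In Bst2 the GAS match runs into a pair of overlapping ISRE matches.

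Array medians of the deposited signal lay between 55.7 and 57.8, and each array's mean correlation with the others of its group was 0.96 or above, lowest in high grade dysplasia at week 8 replicates 1 (0.96) and 2 (0.961). Low grade dysplasia replicate 2 had a log2 ratio of the Gapdh 3′ to 5′ control probe sets of 1.63, against -0.08 to 0.16 on the other arrays. All 11 epithelial marker genes listed were measured, with mean log2 values of 11.70 to 11.81 on the normal arrays. In inflamed mucosa all 11 fell, to means of 10.39, 6.60 and 9.14 in replicates 1 to 3, while 7 of 8 macrophage markers and 6 of 6 neutrophil markers rose. In such bulk tissue, fewer cells of a type and less RNA per cell cannot be told apart.

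Inflamed mucosa on day 14 differed from normal mucosa in 6 of the 34 members. Those that rose were GTPase, chemokine and restriction factor genes: Iigp1 (6.12-fold), Cxcl10 (3.57-fold), Ifi47 (3.27-fold), Bst2 (2.39-fold) and Isg20 (1.62-fold). Ifih1, which encodes the double-stranded RNA sensor MDA5, fell 2.99-fold. The test was limma with Benjamini-Hochberg adjustment over all genes, at an adjusted p under 0.05, with fold changes on the log2(signal + 16) scale, which understates the change of dim genes. Of all genes tested, 46.9% passed in this comparison, 22.6% higher and 24.3% lower, so the members' share (6 of 34) lay below the background. By class, 0 of 12 type I members rose and 1 fell, 3 of 14 interferon gamma members rose and 0 fell, and 2 of 8 induced by either rose and 0 fell. The median log2 difference was -0.61 over the type I members, 0.56 over the interferon gamma members and 0.13 over those induced by either, against 0.01 over all genes. Leaving out 1 of the 6 arrays gave type I medians from -0.93 (without inflamed replicate 1) to -0.07 (without normal replicate 2), interferon gamma medians from 0.42 (without inflamed replicate 1) to 0.73 (without inflamed replicate 2), and medians for those induced by either from -0.01 (without normal replicate 1) to 0.38 (without normal replicate 2).

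**Figure D1:**
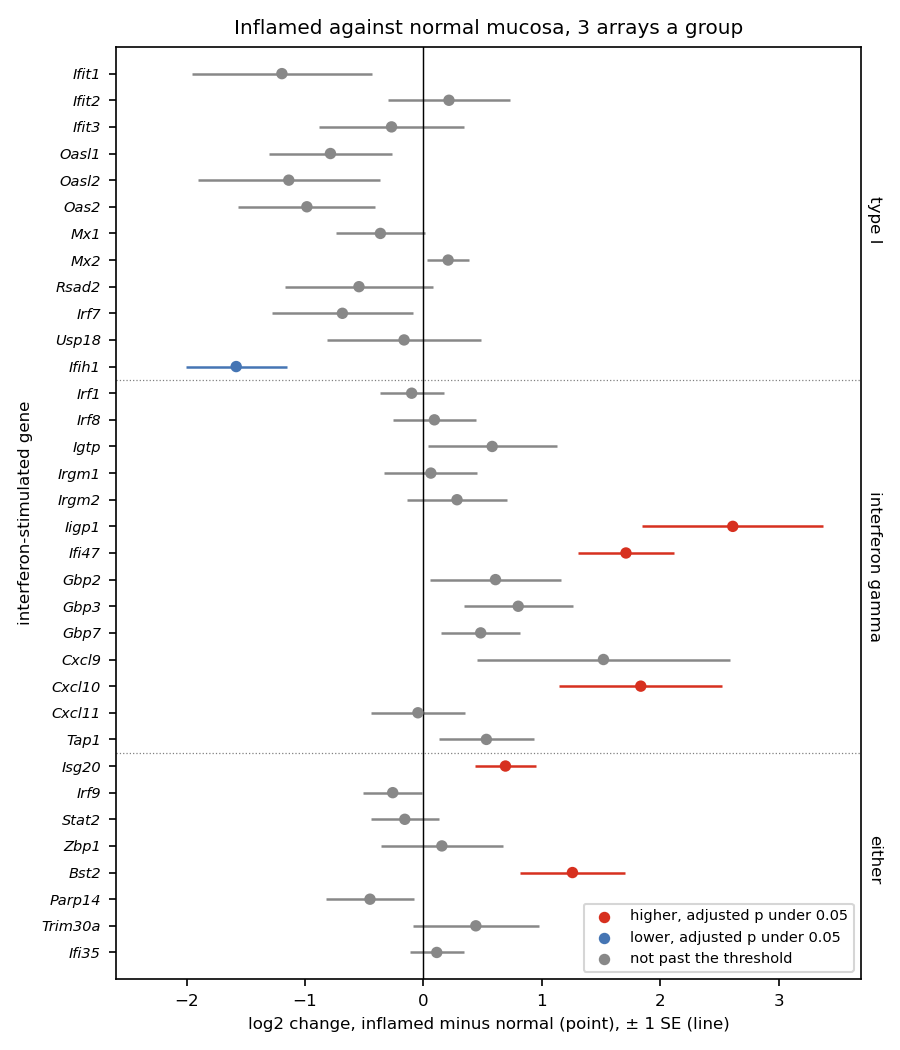
Log2 change of each of the 34 members in inflamed against normal mucosa (horizontal axis, on log2(signal + 16), 3 arrays a group; point, estimate; line, 1 standard error either side), with members in rows by class. Red and blue points passed the adjusted p threshold of 0.05; Iigp1, Ifi47, Cxcl10, Isg20 and Bst2 lie to the right and Ifih1 to the left.

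Among the interferon-inducible GTPases, which attack the vacuoles of intracellular pathogens, Iigp1 had the largest change of any member. Its signal was 324, 227 and 306 in normal mucosa and 2285, 1222 and 2124 in inflamed mucosa. The groups did not overlap, and every inflamed array lay far above the highest normal one. The log2 change was 2.61 ± 0.77 (SE, n = 3 and 3; adjusted p = 0.0114, limma), and a further Iigp1 probe set gave 2.48. Ifi47, another GTPase of this family, had signals of 175, 285 and 220 in normal mucosa against 808, 656 and 840 in inflamed mucosa, again without overlap. Its log2 change was 1.71 ± 0.40 (adjusted p = 0.00287). The other GTPases of the family, Igtp, Irgm1 and Irgm2, had log2 differences of 0.58, 0.06 and 0.28 and did not pass. Irgm1, a regulator of the other GTPases, had signals of 404, 616 and 514 in normal and 667, 403 and 544 in inflamed mucosa, so that the groups overlapped. The guanylate-binding proteins Gbp2, Gbp3 and Gbp7, which act with them, differed by 0.61, 0.80 and 0.48, with adjusted p of 0.394, 0.172 and 0.256. The arrays of Gbp7 did not overlap (572, 775 and 663 against 1156, 780 and 909), which held for 60.2% of all genes in this comparison.

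The chemokines Cxcl9, Cxcl10 and Cxcl11 share the receptor CXCR3 and draw in T and NK cells. Cxcl10 had signals of 140, 163 and 121 in normal mucosa and 1034, 203 and 738 in inflamed mucosa. Inflamed replicate 2 stood close to the normal arrays and the other two far above them. The log2 change was 1.84 ± 0.69 (adjusted p = 0.0401). Cxcl9 had signals of 163, 105 and 158 in normal and 462, 140 and 1182 in inflamed mucosa. Replicate 2 was again the low array and overlapped the normal range, and the log2 difference of 1.52 ± 1.07 did not pass (adjusted p = 0.266). Cxcl11 was near 50 to 60 on the normal arrays (53.3, 53.2 and 59.1) and 83.3, 39.8 and 43.1 on the inflamed ones, a log2 difference of -0.05. Tap1, which pumps peptides to MHC class I molecules, had signals of 245, 310 and 248 against 485, 306 and 406, with a log2 difference of 0.53 (adjusted p = 0.3).

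The antiviral restriction factors induced by either interferon held the remaining increases. Bst2 (tetherin), which holds budding virus particles on the cell surface, had signals of 317, 626 and 364 in normal and 1206, 865 and 1018 in inflamed mucosa. All inflamed arrays lay above all normal ones, with a log2 change of 1.26 ± 0.44 (adjusted p = 0.0304). Isg20, an RNA exonuclease, had signals of 598, 540 and 457 against 837, 847 and 909, also without overlap, and a log2 change of 0.69 ± 0.26 (adjusted p = 0.0396). Of the others, Trim30a differed by 0.44, Zbp1 by 0.16, Ifi35 by 0.11, Stat2 by -0.16, Irf9 by -0.26 and Parp14 by -0.45, and none passed. Zbp1, a sensor of Z-form nucleic acid, had a further probe set with the opposite sign (-0.81). Leaving out 1 array ended several of these calls: that of Isg20 without any of the 6 arrays (adjusted p up to 0.124), that of Cxcl10 without any but inflamed replicate 2 (up to 0.152) and that of Bst2 without replicate 1 or 3 of either group (up to 0.108), so that 3 of 34 members passed without either replicate 1 or either replicate 3. Those of Iigp1, Ifi47 and Ifih1 kept an adjusted p under 0.05 in all 18 alternatives run.

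The sensors and transcription factors of the set gave a single call. Ifih1 had signals of 1367, 2299 and 1546 in normal mucosa and 843, 391 and 518 in inflamed mucosa. Every inflamed array was below every normal one, and the log2 change was -1.58 ± 0.43 (adjusted p = 0.00704). Among the inflamed arrays Ifih1 and the epithelial markers stood in the same order, highest in replicate 1 and lowest in replicate 2; the part of the epithelial loss in this difference was not tested. Irf7, the factor that amplifies type I interferon, had signals of 260, 851 and 291 in normal and 330, 191 and 232 in inflamed mucosa, overlapping, with a log2 difference of -0.68 (adjusted p = 0.374). Irf1 and Irf8 differed by -0.10 and 0.09.

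The classical type I effectors overlapped between the groups. Ifit1, which binds viral RNA lacking a methylated cap, had signals of 572, 1887 and 642 in normal and 846, 211 and 298 in inflamed mucosa. Normal replicate 2 stood far above the other normal arrays, the groups overlapped, and the log2 difference of -1.20 ± 0.76 did not pass (adjusted p = 0.214). Oas2, an enzyme that makes the second messenger activating RNase L, had signals of 232, 1350 and 272 in normal and 292, 156 and 222 in inflamed mucosa, with normal replicate 2 again far above every other array of both groups. Its log2 difference was -0.98 ± 0.58 (adjusted p = 0.18). Rsad2 (viperin), which makes a chain-terminating nucleotide, had signals of 860, 2417 and 636 against 1385, 610 and 495. The remaining members of this kind were Ifit2 (0.22), Ifit3 (-0.27), the OAS-like genes Oasl1 (-0.79) and Oasl2 (-1.14), the antiviral GTPases Mx1 (-0.36) and Mx2 (0.21), and Usp18 (-0.16), the protease that removes ISG15 and dampens IFNAR signalling. None passed, with adjusted p between 0.235 and 0.863.

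**Figure D2:**
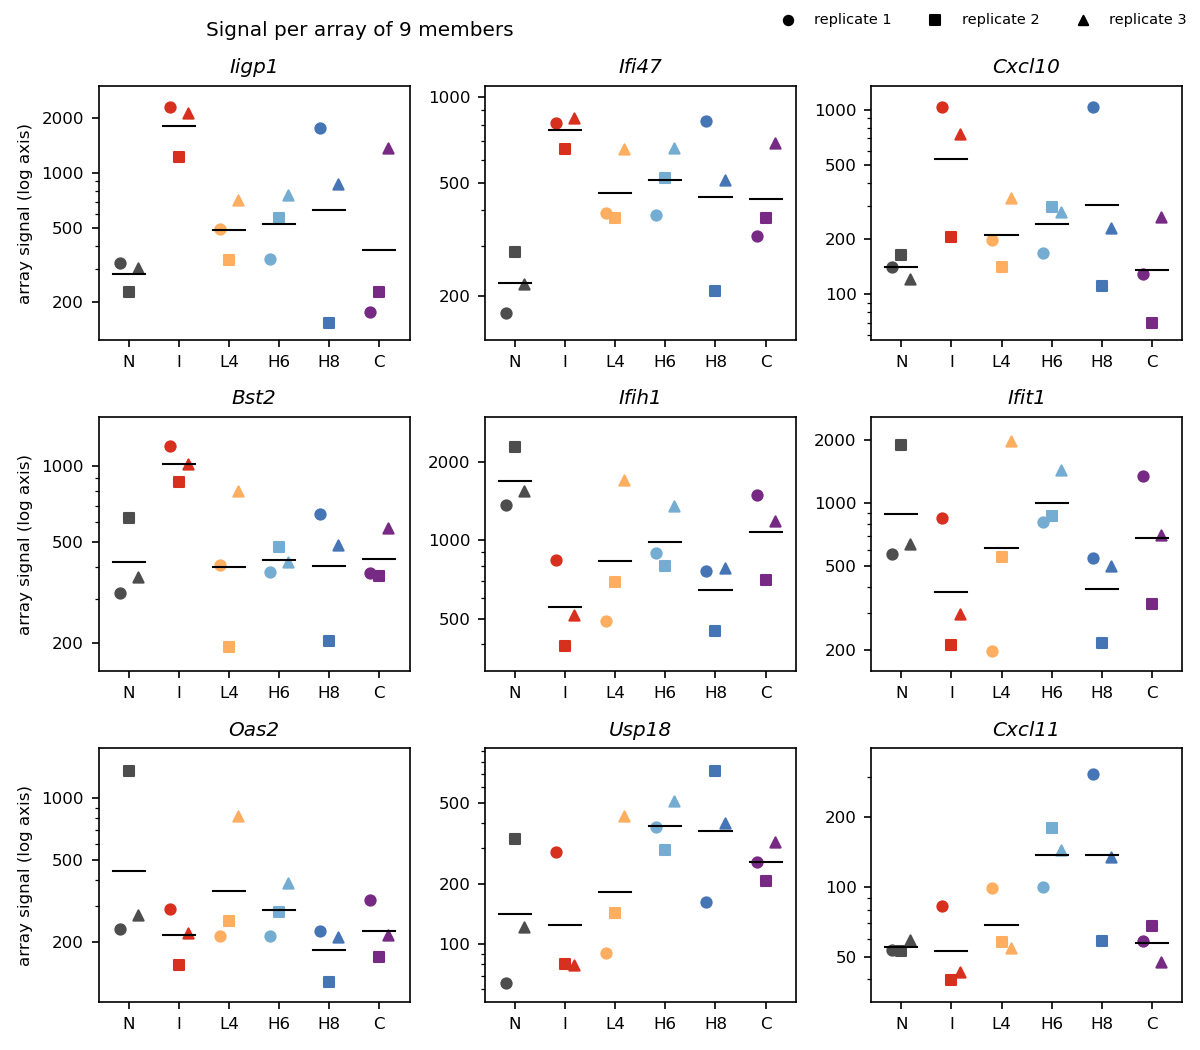
Array signal (vertical axis, log scale) of 9 members in normal mucosa (N), inflamed mucosa (I), low grade dysplasia (L4), high grade dysplasia at week 6 (H6) and week 8 (H8) and carcinoma (C). Each symbol is 1 array, its shape the replicate number, and the bar is the group mean on the log2(signal + 16) scale; Iigp1, Ifi47 and Bst2 are high on all 3 inflamed arrays, while Ifit1 and Oas2 are high on 1 normal array and on low grade dysplasia replicate 3.

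After the acute phase no member passed against normal mucosa. The count was 0 of 34 in low grade dysplasia (5.69% of all genes passed), 0 of 34 in high grade dysplasia at week 6 (1.14%), 0 of 34 at week 8 (11.3%) and 0 of 34 in carcinoma (0.901%). At an unadjusted p under 0.05 in limma, 2, 3, 4 and 1 members passed in these comparisons (24.4, 19.6, 30.2 and 18.5% of all genes). All of them use the same 3 normal arrays. Ifi47 had signals of 391, 374 and 656 in low grade dysplasia, 384, 518 and 662 in high grade dysplasia at week 6, 820, 208 and 512 at week 8 and 324, 376 and 688 in carcinoma. All arrays but week 8 replicate 2 were above the highest normal value of 285, yet none of the log2 differences (0.99, 1.14, 0.96 and 0.93) passed (adjusted p = 0.147, 0.145, 0.125 and 0.237). Iigp1 had log2 differences of 0.77, 0.87, 1.11 and 0.42 across the same stages. Its carcinoma arrays were split, with signals of 176, 225 and 1362.

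Ifih1 was lower than in normal mucosa by log2 differences of -1.0, -0.76, -1.37 and -0.64 in the 4 later stages, with adjusted p of 0.0513 at week 8, where its arrays (761, 448 and 783) did not overlap the normal ones. Its week 6 arrays (898, 794 and 1361) were also all below the lowest normal array (1367), as were those of 17.4% of all genes. Without low grade dysplasia replicate 3, Ifih1 passed in that stage (-1.51, adjusted p = 0.0213). In high grade dysplasia at week 8, Oasl2 (223, 51.1 and 225), Oas2 (228, 128 and 213), Rsad2 (634, 256 and 500) and Ifit1 (549, 215 and 505) also lay wholly below the normal arrays. Their log2 differences were -1.88, -1.20, -1.31 and -1.15, and none passed (adjusted p = 0.117, 0.177, 0.172 and 0.329). Such separation downward held for 5 of 34 members, 5 of them type I, against 17.9% of all genes. The type I median in that comparison was -0.90; it was -0.38 without normal replicate 2, -0.52 without week 8 replicate 2 and -1.21 to -1.04 without any other of the 6 arrays. The interferon gamma median was 0.03, and ran from -0.32 without week 8 replicate 1 to 0.72 without week 8 replicate 2. Without that last array, Ifi47 (1.48, adjusted p = 0.0301) and Cxcl11 (1.63, adjusted p = 0.024) passed.

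Cxcl11 had its highest group means in high grade dysplasia rather than in inflamed mucosa. It had signals of 99.7, 58.1 and 54.8 in low grade dysplasia, 99.7, 181 and 145 in high grade dysplasia at week 6, 307, 58.8 and 134 at week 8 and 58.4, 68.3 and 47.8 in carcinoma. The week 6 arrays were all above the normal ones, and at week 8 replicate 2 fell back to the normal range. Against normal mucosa, where its signals lay near the table median of 56.6, the log2 differences were 1.11 at both high grade time points (adjusted p = 0.147 and 0.077). A further Cxcl11 probe set, under the filter, differed by 0.01 at both. Usp18 had a similar course of group means up to week 8. At week 8 its arrays (162, 720 and 399) ran in the opposite order to those of Cxcl11. The log2 differences of Usp18 from normal mucosa were 0.32, 1.35, 1.27 and 0.79 from low grade dysplasia to carcinoma. None passed in limma (adjusted p = 0.797, 0.265, 0.201 and 0.544). Cxcl11 was also higher at week 8 than in inflamed mucosa (1.16 ± 0.40, adjusted p = 0.0317), although the arrays overlapped. Across the 6 groups, limma's F test passed for Cxcl11 (adjusted p = 0.0448) and Ifi47 (0.049) among the 34 members, against 45.3% of all genes. Both calls stood together only without week 8 replicate 1 or 2; leaving out any 1 array gave 0 to 4 members, and 0 without any normal array.

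From inflamed mucosa to low grade dysplasia, 1 of 34 members fell and 0 rose, where 36.3% of all genes passed. That member was Bst2, at 407, 193 and 800 in low grade dysplasia, all below the inflamed arrays, with a log2 change of -1.32 ± 0.44 (adjusted p = 0.0312; up to 0.164 without inflamed replicate 1 or 3 or low grade dysplasia replicate 1 or 2). Iigp1, at 497, 337 and 710, was also wholly below the inflamed arrays; its log2 difference of -1.85 did not pass (adjusted p = 0.0726). With only these 6 arrays fitted, Iigp1 passed (adjusted p = 0.0154) and Bst2 did not (0.0887). Between inflamed mucosa and high grade dysplasia at week 8, where 39.3% of all genes passed, Cxcl11 was higher and 3 members were lower: Bst2 (-1.31), Isg20 (-0.80) and Mx2 (-0.54), with adjusted p of 0.0305, 0.0247 and 0.0257. All 4 calls were lost when only these 6 arrays were fitted (adjusted p up to 0.172), and 8 members passed without week 8 replicate 1, 2 without inflamed replicate 2 and 1 without inflamed replicate 3 or week 8 replicate 2 or 3. No gene of the array passed between low grade dysplasia and week 6, week 6 and week 8, or week 8 and carcinoma (0%); at an unadjusted p under 0.05 in limma, 1, 0 and 1 members did (6.99, 3.28 and 11% of all genes).

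The members varied mainly from array to array within a group. The median standard deviation within groups was 0.604 log2 over the 34 members (0.787 for type I, 0.55 for interferon gamma, 0.436 for either), against 0.195 over all genes. The standard deviation of the 6 group means exceeded it in 2 of 34 members, Ifi47 and Cxcl11, against 53.9% of all genes. Cxcl9 had the largest within-group standard deviation (1.44), followed by Oasl2 (1.03), Iigp1 (1.03) and Ifit1 (1.01); Mx2 had the smallest (0.223). In normal mucosa, 10 of 12 type I members differed over 2-fold between the highest and lowest array, as did 1 of 14 interferon gamma members and 2.83% of all genes. In high grade dysplasia at week 8, 14 of 14 interferon gamma members did (17.4% of all genes), up to 36.8-fold for Cxcl9 (1318, 35.8 and 678).

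**Figure D3:**
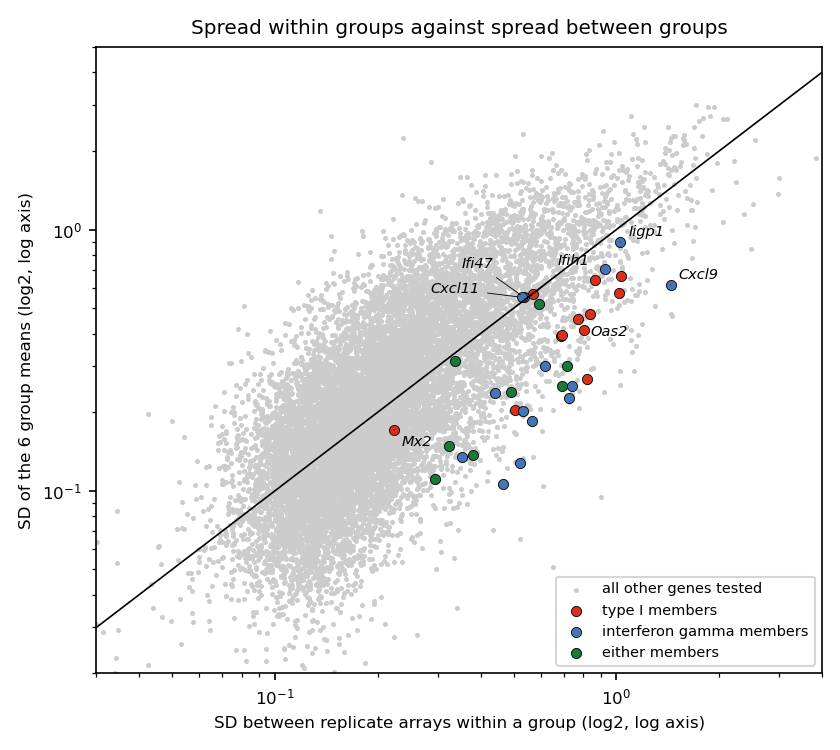
Standard deviation between replicate arrays within a group (horizontal) against the standard deviation of the 6 group means (vertical), both in log2 units on log axes, for all genes tested (grey) and the 34 members (coloured by class). The line marks equality; all members but Ifi47 and Cxcl11 lie below it, against 53.9% of all genes above it.

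The type I members moved together in this spread. All 12 were highest on the same array in normal mucosa (replicate 2), in inflamed mucosa (replicate 1), in low grade dysplasia (replicate 3) and in high grade dysplasia at week 6 (replicate 3), where 31.2, 29.5, 37 and 28.9% of all genes had their highest value. In low grade dysplasia, replicate 1 was lowest for all 12. Ifit1 there had signals of 198, 556 and 1982, Oasl2 of 151, 302 and 1148 and Irf7 of 112, 265 and 749. Replicate 3 passed the highest normal array for Ifit1 (1887) and stayed below it for Oasl2 (1449) and Irf7 (851). At week 8, replicate 2 was lowest for 11 of 12. The exception was Usp18, at 162, 720 and 399, whose value on that array was its highest of all 18. In carcinoma, replicate 2 was lowest for 12 of 12 and replicate 1 highest for 10 of 12, as for Ifit1 (1354, 331 and 708), Oasl2 (609, 133 and 273) and Rsad2 (948, 280 and 473).

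**Figure D4:**
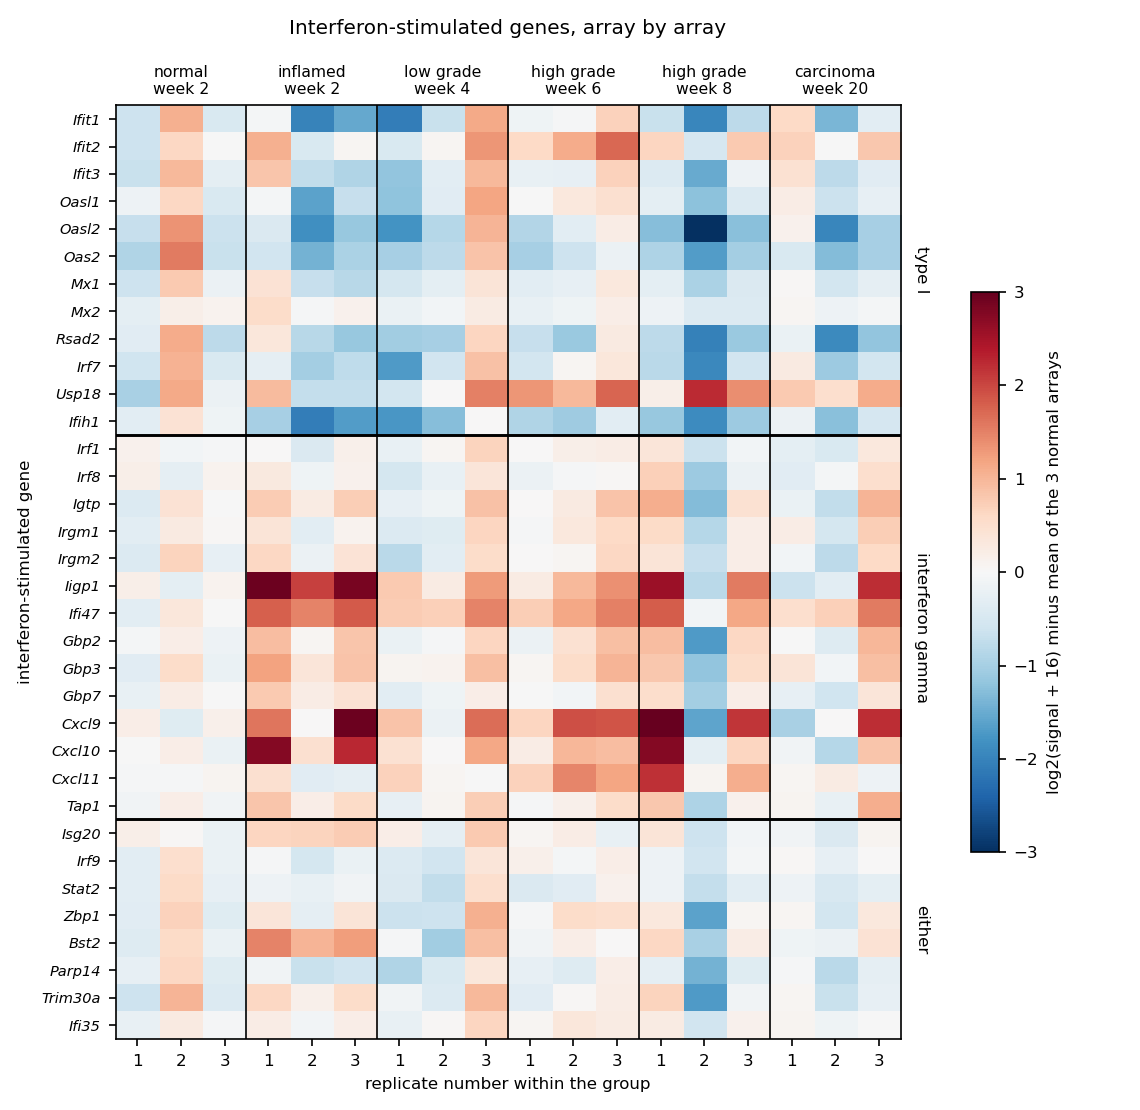
Log2(signal + 16) of each member (rows, by class) on each of the 18 arrays (columns, by group and replicate) minus the mean of the 3 normal arrays (colour, red higher, blue lower). Columns rather than groups share a colour in the type I block, for example normal replicate 2 and low grade dysplasia replicate 3, while Iigp1 and Ifi47 are red on all 3 inflamed arrays.

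The interferon gamma members moved together as well, but not always on the same arrays. Inflamed replicate 2 was lowest for 14 of 14 (27.5% of all genes). At week 8, replicate 1 was highest for 14 of 14 and replicate 2 lowest for 14 of 14 (37.4 and 33.4% of all genes). Gbp2, for example, had signals there of 2376, 376 and 1920, Igtp of 674, 116 and 428, and Tap1 of 479, 133 and 290. In carcinoma, replicate 3 was highest for 13 of 14 interferon gamma members and replicate 1 for none, whereas replicate 1 was highest for 10 of 12 type I members. There Cxcl9 had signals of 63.9, 141 and 705, Gbp2 of 1241, 953 and 2512, and Irgm1 of 591, 343 and 858. Averaged over members and set against normal mucosa, carcinoma replicates 1 to 3 lay at 0.20, -0.88 and -0.30 log2 for type I and at -0.12, -0.29 and 0.94 for interferon gamma. In normal mucosa the type I mean spanned -0.57 to 0.91 and the interferon gamma mean -0.11 to 0.15.

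**Figure D5:**
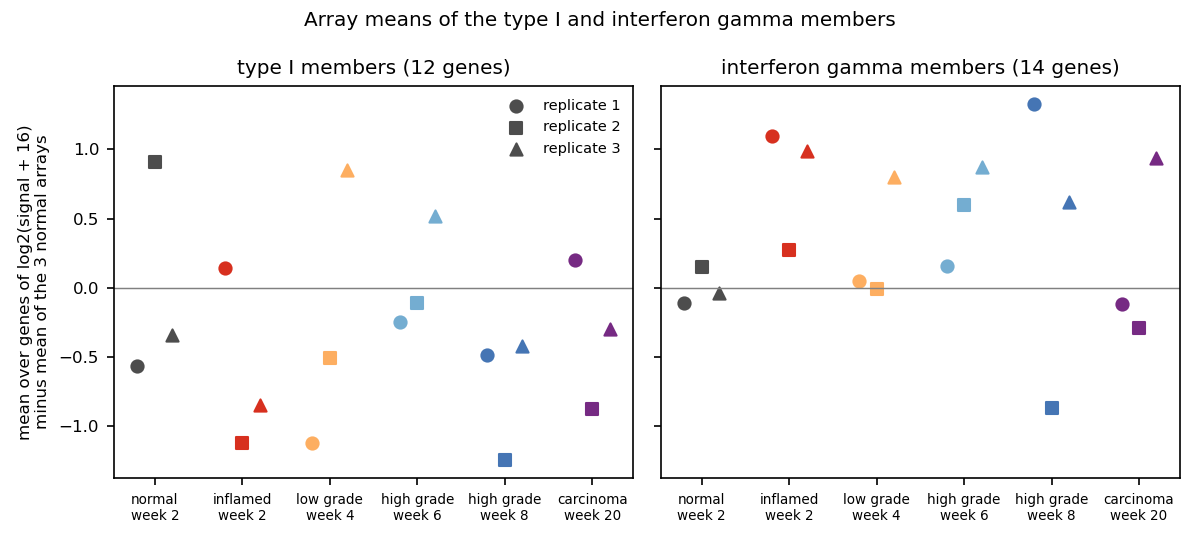
Mean over the 12 type I members (left) and the 14 interferon gamma members (right) of log2(signal + 16) minus the mean of the normal arrays, for each array (symbol shape, replicate number) by group. The type I panel shows 1 high array in normal mucosa (0.91) and in low grade dysplasia (0.85); the interferon gamma panel shows a tight normal group and, at week 8, arrays from -0.87 to 1.33.

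As a description over the 18 arrays, which share groups and cell makeup, 10 of the 12 type I members correlated with the mean of the other type I members at r of 0.76 to 0.97, and Mx2 (0.61) and Usp18 (0.36) less. For the interferon gamma members r with their own class was 0.72 to 0.94, except Cxcl11 (0.35). Of the members induced by either, Parp14 (0.94) and Irf9 (0.90), the DNA-binding subunit of ISGF3, were closest to the type I mean, whereas Bst2 (0.75) and Isg20 (0.67) were closer to the interferon gamma mean than to the type I mean (0.28 and 0.16). Iigp1 and Ifi47 had r of -0.01 and 0.15 with the type I mean. Outside the set, the genes most like the type I mean were Parp9 (0.959), Dhx58 (0.944), Rtp4 (0.94), Herc6 (0.933) and Oas1b (0.919). Those most like the interferon gamma mean were the immunoproteasome subunits Psmb9 (0.944) and Psmb8 (0.933), then Gm4951 (0.919), Calhm6 (0.911) and the MHC class I transactivator Nlrc5 (0.91).

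Marker genes of other cells differed between the same arrays. On week 8 replicate 2, where most members were lowest, the mean log2 level was 6.52 for 9 T and NK cell markers (8.15 and 7.76 on replicates 1 and 3), 8.13 for 6 B and plasma cell markers (11.02 and 9.84), 7.42 for 8 plasmacytoid dendritic cell markers (8.45 and 8.25) and 6.63 for 4 dendritic cell markers (7.67 and 7.16). The neutrophil mean was 7.19 (9.35 and 8.68) and the macrophage mean 8.80 (9.46 and 9.14) on that array. Its epithelial mean was 11.09, against 11.36 and 11.34, and its smooth muscle mean 11.52, against 11.04 and 11.07. Tcf4, of the plasmacytoid list, was highest on replicate 2 (917, 2057 and 1701 on week 8 replicates 1 to 3). In carcinoma, T and NK markers stood at 6.57, 7.43 and 7.70, with replicate 3 highest. It was highest for B and plasma cell (9.10, 9.82 and 10.30) and dendritic cell markers too (6.73, 7.04 and 7.46). The plasmacytoid list went the same way (8.03, 8.23 and 8.57). The neutrophil mean was highest on replicate 2, and the macrophage, epithelial and smooth muscle means on replicate 1. Of the T and NK list, Gzma (140, 666 and 389) and Gzmb (54.2, 162 and 137) were highest on replicate 2. In normal mucosa the T and NK markers stood at 7.53, 7.53 and 7.11 and plasmacytoid markers at 8.18, 8.00 and 8.17. By these means the array with the high type I values, replicate 2, was not above the others. Within the T and NK list, Gzma, Gzmb, Nkg7 and Klrd1 were highest on replicate 2, and Cd3d, Cd3e, Cd3g, Cd4 and Cd2 lowest. Gzma stood at 150, 426 and 59.4 and Cd3d at 439, 280 and 331. The smooth muscle mean was highest on replicate 2 too (12.12, 12.74 and 12.28). On low grade dysplasia replicate 3, the other array with high type I values, the means of the lymphocyte and plasmacytoid lists were highest of the group. T and NK markers stood at 7.37, 6.91 and 8.01 on replicates 1 to 3, plasmacytoid markers at 7.70, 7.86 and 8.38, and B and plasma cell markers at 9.44, 8.80 and 10.05. The epithelial (11.12, 11.72 and 12.07) and dendritic cell means (6.91, 7.27 and 7.52) were also highest on replicate 3. Neutrophil (10.93, 8.42 and 6.78) and macrophage means (9.95, 9.10 and 9.31) were highest on replicate 1. The plasmacytoid list was split. Siglech (55.8, 66.0 and 39.0) and Tcf4 (1255, 1378 and 637) were lowest on replicate 3 and its other markers highest, with Klk1 (1069, 2577 and 10630) furthest apart. Klk1 was also lower in inflamed mucosa (1018, 190 and 342) than in normal mucosa (12860, 12110 and 14390), as were all 11 epithelial markers. Its normal signals stood far above those of Siglech (35.1, 34.8 and 45.4). The mean of this list therefore cannot be read as plasmacytoid cells alone. In inflamed mucosa the T and NK mean was 7.91 to 8.04, against 7.11 to 7.53, with 1 of 9 markers higher. The part of cell makeup in the members' spread was not tested.

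The interferons themselves were dim. Ifnb1 (signal 22 to 33.9), Ifng (7.92 to 20.5) and the alpha genes with a probe set stayed under the filter and were not tested. Ifnz, the only interferon gene past it, rose by 0.42 in inflamed mucosa (adjusted p = 0.0234). Of 9 measured receptor, kinase and STAT genes, 4 rose and 2 fell in inflamed mucosa, against 22.6% higher and 24.3% lower over all genes, the background for the other lists of this comparison as well. Ifnar2, a subunit of the type I receptor, had signals of 327, 309 and 262 in normal and 1057, 1288 and 1523 in inflamed mucosa, with no overlap (2.04 ± 0.28, adjusted p = 4.9e-05). Ifnar1 rose by 0.72 and Jak1 by 0.69. Ifnlr1, the specific subunit of the lambda interferon receptor, fell by 0.72. The negative regulators gave 3 higher and 1 lower of 6. Socs3, a feedback inhibitor of JAK signalling, had signals of 440, 203 and 483 against 4070, 4192 and 5305 (3.62 ± 0.67, adjusted p = 0.000468). Ptpn2, a phosphatase that acts on JAK1, rose by 1.32, Ptpn6 rose by 0.65, and Irf2, a repressor at ISREs, fell by 0.75.

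Sensors and adaptors upstream of interferon production split 5 higher to 5 lower of 14 in inflamed mucosa, where 46.9% of all genes passed. Sting1, the adaptor of cytosolic DNA sensing, rose by 1.62, Tlr7, an RNA sensor, by 1.24 and the adaptor Myd88 by 0.97, while the DNA sensor Aim2 fell by 1.17. Sting1 had signals of 145, 94.7 and 131 in normal mucosa and was above them on all 3 arrays in low grade dysplasia (325, 297 and 310) and high grade dysplasia at week 6 (488, 380 and 271) and week 8 (350, 568 and 417). It passed in each of these stages (log2 changes of 1.25, 1.49 and 1.72, adjusted p = 0.019, 0.0253 and 0.00367). Among 25 further type I targets, 2 rose and 8 fell in inflamed mucosa, the latter a share near the 24.3% of all genes that fell: Ifi204 rose by 2.10, while Ddx60 fell by 2.40, Oas1a by 1.85 and Parp12 by 1.34. Ddx60 had signals of 94.8, 597 and 138 in normal and 40.6, 12.8 and 27.3 in inflamed mucosa, with normal replicate 2 high as for the type I members. Among 16 further interferon gamma targets, 4 rose, a share near the 22.6% of all genes that rose, and 0 fell. Those that rose were the adhesion molecule Icam1 (2.47), Gbp6 (1.41), Cd274, which encodes PD-L1 (1.10), and Psme1 (0.41). Against normal mucosa, the later stages gave 6 further calls over these lists. In high grade dysplasia at week 8, where 11.3% of all genes passed, Ifi27 and Trim25 fell among the type I targets (-0.92 and -0.87) while Icam1 rose by 0.93 and the RNA sensor Ddx58 by 0.53, and Irf2 fell by 0.87; in low grade dysplasia, where 5.69% passed, Wars rose by 0.72.

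Isg15, the ubiquitin-like modifier of this response, could be read only on a probe set shared with Gm9706. That probe set had signals of 433, 1795 and 484 in normal, 789, 356 and 496 in inflamed, 282, 370 and 1731 in low grade dysplasia, 473, 872 and 932 at week 6, 615, 110 and 453 at week 8 and 632, 291 and 460 in carcinoma. Its high arrays, normal replicate 2 and low grade dysplasia replicate 3, and its lowest, week 8 replicate 2, were those of the type I members. Its share from each gene cannot be told apart, and it was not tested.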

How the data were processed

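Total RNA of mouse colorectal tissue (18 samples, 6 groups of 3, grouped by their labels) was hybridised to Affymetrix arrays. The deposited values are linear probe set intensity values, for which the submitters' processing notes name MAS5, with no version, scaling or settings given. Of 45101 probe sets, 34945 were annotated to 1 gene, 932 to several and 9160 to none (64 controls among the probe sets were left out). From the intensities, log2(signal + 16) was taken without further normalization, probe sets above the table median (56.6) on at least 3 of 18 arrays were kept, and the probe set of highest mean stood for each gene. A linear model with all 18 arrays was fitted in limma 3.58.1 (R 4.3.3; lmFit, and eBayes with an intensity trend; 12 residual degrees of freedom), with p-values adjusted over all 12877 genes. Precision is limited by the 3 arrays per group. Of the members, 13 had over 1 probe set and 21 had 1.

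The fit was tested on simulated data with known changes before use. Same-numbered samples of different groups showed no general tendency to deviate together (45 pairs, r of -0.462 to 0.331, median -0.001, 11 over 0.1). The numbers were therefore not used as pairs in the main fit. Some pairs did go together. Week 8 replicate 2 had r of 0.331, 0.272 and 0.236 with the replicates 2 of low grade dysplasia, inflamed mucosa and carcinoma. With those of normal mucosa and week 6 it had 0.075 and -0.08. The members and the lists of other genes and markers were chosen with earlier results of these data known. Every member could be named; of other lists, called genes were named by size of change, up to 4 a list and comparison, and 5 genes by likeness to each class mean. Alternatives concerned the pseudocount, filter, normalization, choice of probe set, variance model, arrays fitted, replicate block and leaving out each array.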

Additional observations from a re-analysis of the deposited data

How the results depend on the processing

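No member changed direction among the results called, under any alternative run; 6033 member values kept their side of the threshold, 39 gained a call and 38 lost one. Counts of called members moved as follows. With array weights (estimated gene by gene, a choice made after the default estimate did not converge) they were 1 in low grade dysplasia (Ifih1), 2 at week 6, 9 at week 8 (5 higher, 4 lower) and 1 in carcinoma, each against normal, 4 from inflamed mucosa to low grade dysplasia, 1 from week 8 to carcinoma and 9 by the F test; many more genes of the array passed in these fits too (4748 at week 8, against 1450). With only the 6 arrays compared they were 3 at week 6 and 1 at week 8 against normal and 0 between inflamed mucosa and week 8. Quantile normalization gave 1 at week 8 and 1 by the F test, and a pseudocount of 64 or no filter gave 0 by the F test. With the replicate number as a block, 2 members passed from inflamed mucosa to low grade dysplasia (Iigp1 joined Bst2), and no other count moved past 1.5 times. Leaving out 1 array gave 3 to 5 calls in inflamed mucosa, 0 to 1 in low grade dysplasia and 0 to 2 at week 8 against normal, 0 to 2 from inflamed mucosa to low grade dysplasia, 1 to 8 between inflamed mucosa and week 8 (8 without week 8 replicate 1) and 0 to 4 by the F test. The causes were not tested. The standard errors of the members' differences ran from 0.18 (Mx2) to 1.07 (Cxcl9) log2. The leave-one-out medians of each class were added after seeing the data.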
